A study of Sus scrofa with 6 samples.

Results

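Inhibitory transmission in the spinal cord runs on glycine and GABA, and 10 genes of that machinery were followed in the cervical spinal cord of pigs lacking the maternal copy of UBE3A. They were chosen by name for their function, with earlier results of these data known. They are the receptor subunits GLRA1, GLRA2, GLRA3 and GLRB, the scaffold GPHN, the transporters SLC6A5, SLC6A9 and SLC32A1, and the GABA-synthesising enzymes GAD1 and GAD2. All 10 names had a row among the 28965 genes of the deposited files, and 9 had enough reads to be tested. The animals were male pigs of 140 days, 3 wildtype and 3 with the UBE3A maternal deletion, and each gave 1 poly(A) RNA library from bulk cervical spinal cord. UBE3A encodes a ubiquitin ligase that mature neurons make mainly from the maternal allele, and its loss causes Angelman syndrome in people. The sources used here do not give the breed, the extent of the deletion or the litters, and bulk tissue cannot tell fewer cells of a type from less RNA per cell.

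Glycine is released by inhibitory interneurons of the cord and brainstem and opens chloride channels built from alpha subunits and the beta subunit, GLRB. GLRB binds gephyrin, the product of GPHN, which holds the channels under the presynaptic terminal. SLC6A5 refills glycinergic terminals and SLC6A9, found largely on astrocytes, clears glycine from the extracellular space. GAD1 and GAD2 make GABA from glutamate, and SLC32A1 loads both transmitters into vesicles, often into the same vesicle in the cord. In people, mutations of GLRA1, GLRB or SLC6A5 cause hyperekplexia, an exaggerated startle with stiffness.

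Libraries held 17181003 to 22492366 exon reads, and a level here is in CPM, scaled to each library total after adjustment by its TMM factor. On that scale 3 reads, the floor used here, equal 0.13 to 0.176 CPM. UBE3A stood at 57.0, 65.5 and 60.6 CPM in the 3 wildtype libraries and at 21.4, 27.1 and 21.4 CPM in the 3 deletion libraries, a fold of 0.382, which goes with the labels (edgeR adjusted p 0.0253, quasi-likelihood test with Benjamini-Hochberg adjustment over all genes tested). With the ID prefix of the animals as a block its log2 fold change stayed at -1.39 but the call was lost (edgeR adjusted p 0.0526), as it was without wildtype replicate 1 (0.152) or deletion replicate 1 (0.0728), 2 (0.0886) or 3 (0.0822). Other tissue genes differed between the groups as well. The general neuron list, with 19 of 20 names present and none at 0 in every library, summed to 2920 to 7063 CPM in wildtype and 10095 to 20090 CPM in the deletion group. A large part of this sum came from NEFL and NEFH, with means of 1109 and 826 CPM in wildtype and 4043 and 3418 CPM in the deletion group. All 18 tested genes of the list had positive log2 fold changes, 15 without overlap, but by unlike amounts. RBFOX3 was higher 1.52-fold and ELAVL3 1.14-fold, the latter with overlap. The motor neuron list, 7 of 7 present, summed to 179 to 350 CPM and to 382 to 1260 CPM. PRPH, with means of 199 and 507 CPM, made up most of that sum. Its groups overlapped at a fold of 2.55, where the other 6 did not overlap, with 9.12 for CHAT and 8.29 for MNX1. The meninges and fibroblast list, 10 of 10 present, summed to 2495 to 3248 CPM and to 385 to 653 CPM, while the mature oligodendrocyte list, 9 of 10 present, overlapped at 76160 to 131825 and 86877 to 129737 CPM. Wildtype replicate 3 stood apart, with the lowest neuron sum, a share of reads on 13 mitochondrial mRNAs of 5.88% against 9.01 to 12.4% in the other 5, and HOXC8 at 1.97 CPM against 23.2 to 32.1 CPM. Genotype and neuron content cannot be told apart in these libraries, and the part of the other differences in the results was not tested.

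Of the 9 members tested, none passed an adjusted p of 0.05 in edgeR's quasi-likelihood test, where 1.02% of 14566 genes did. At an unadjusted p under 0.05 there were 3 members, GLRA1, GLRB and GPHN, all with higher deletion levels, where 20.2% of genes were at that level. DESeq2 called 2, GLRA1 and GLRB, against 9.5% of genes. The authors' deposited table has the same 2 under a false discovery rate of 0.05, against 7.2% of its genes. Limma voom called none of the 9, where it called 444 of the 14566 genes. All 9 log2 fold changes, deletion over wildtype, were positive, as were 8266 of the 14566 genes tested. That of GAD1 turned negative under each other scaling, and that of GAD2 was -0.29 with voom. Without deletion replicate 3, GLRA2, GAD1 and GAD2 were negative, at -0.15, -0.83 and -1.02. The median of the 9 was 0.41, where that of all genes tested was 0.05. In TMM-scaled CPM every deletion library lay above every wildtype library in 4 members, GLRA1, GLRB, GPHN and SLC6A9. The same held for 15.2% of all genes tested. In the deposited RPKM, scaled by exon length and library size, only GLRA1 and GLRB of these 4 stayed separate. GPHN and SLC6A9 overlapped there through wildtype replicate 3.

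**Figure D1:**
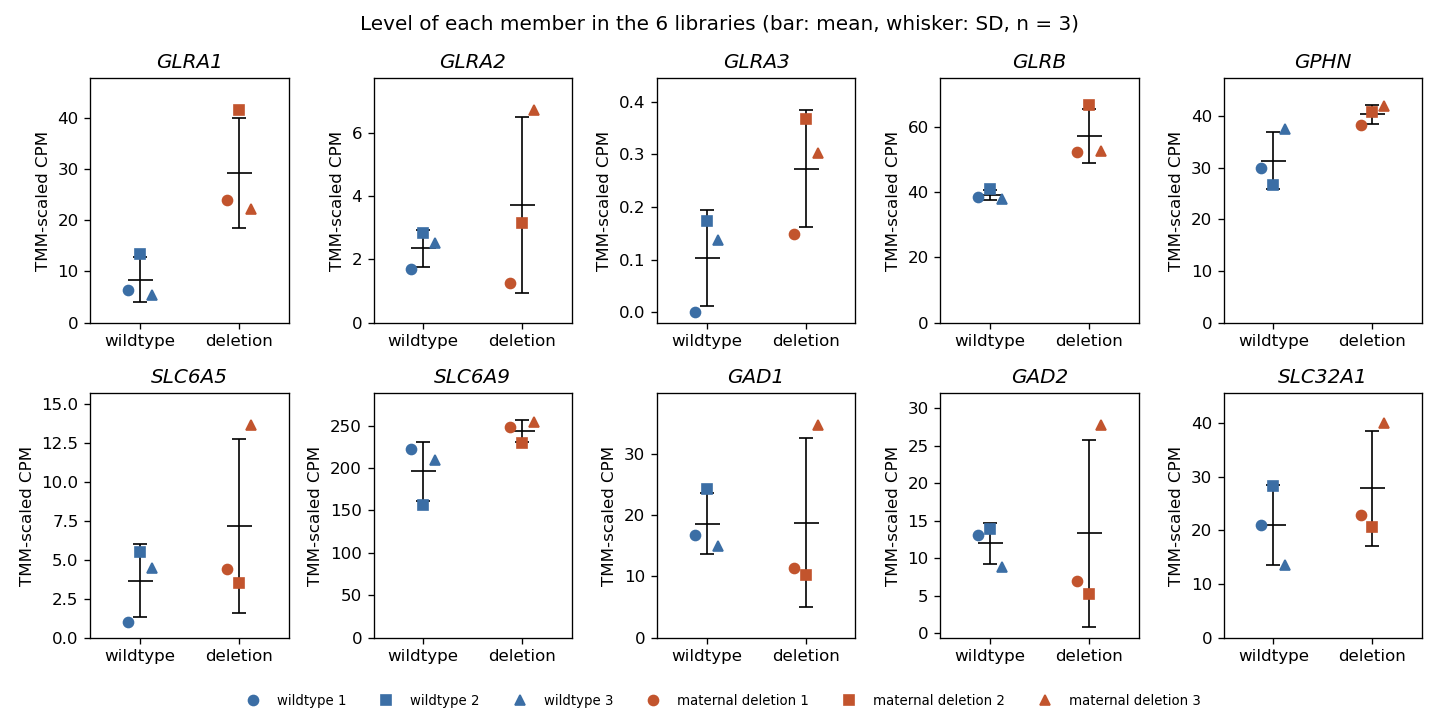
Level of each of the 10 genes in TMM-scaled CPM (vertical axis, a separate range for each gene) in the 3 wildtype and 3 deletion libraries, with the mean as a bar and the SD as whiskers. On this scale the groups do not overlap for GLRA1, GLRB, GPHN and SLC6A9. Deletion replicate 3 is the highest library for SLC6A5, GAD1, GAD2, SLC32A1, GLRA2, GPHN and SLC6A9.

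GLRA1 (ENSSSCG00000017078), the main alpha subunit of the adult spinal cord, had the largest fold change of the tested members. It stood at 6.45, 13.5 and 5.33 CPM in wildtype replicates 1 to 3 and at 24.0, 41.6 and 22.2 CPM in the deletion replicates, in the same order. The groups did not overlap, and the highest wildtype library was at 13.5 CPM against 22.2 CPM for the lowest deletion library. Group means were 8.41 ± 4.40 and 29.2 ± 10.7 CPM (SD, n = 3 each), a fold of 3.46 with a 95% interval of 1.83 to 6.52. The log2 fold change of 1.79 (SE 0.39) had an edgeR adjusted p of 0.0780. It was past the threshold in DESeq2, with an adjusted p of 0.000367, and the authors' deposited table gives 3.50-fold with a false discovery rate of 1.16e-07. By exact two-sided permutation of the 6 libraries p was 0.1, and 3 against 3 can give no smaller value. The ratio of deletion to wildtype was 3.71 between the 2 animals whose ID begins with 14, 1 of each genotype, and 3.39 between the means of the 2 and 2 animals of prefix 15. Without wildtype replicate 3 the log2 fold change was 1.47, at an edgeR adjusted p of 0.1008. With the mean level of the general neuron list as a covariate it turned to -0.33 (SE 0.50; edgeR adjusted p 0.788).

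GLRB (ENSSSCG00000032722), the beta subunit shared by synaptic glycine receptors, had a smaller fold change and varied little among the wildtype animals. It stood at 38.5, 40.8 and 37.9 CPM in wildtype replicates 1 to 3 and at 52.3, 66.5 and 52.5 CPM in the deletion replicates. Again no deletion library reached down to the wildtype range. The means were 39.1 ± 1.51 and 57.1 ± 8.16 CPM (SD, n = 3 each), a fold of 1.46 with a 95% interval of 1.19 to 1.80. The log2 fold change of 0.55 (SE 0.13) had an adjusted p of 0.0825 in edgeR and of 0.0182 in DESeq2. The authors' deposited table gives 1.48-fold with a false discovery rate of 0.0418. Without wildtype replicate 3 the value was 0.46, at an edgeR adjusted p of 0.105, and with the general neuron covariate it was 0.18 (SE 0.31; edgeR adjusted p 0.811).

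The other alpha subunits were far lower. GLRA2 (ENSSSCG00000012129), the alpha subunit of the immature nervous system in rodents, stood at 1.70, 2.82 and 2.52 CPM in wildtype and at 1.25, 3.15 and 6.74 CPM in the deletion replicates. The groups overlapped, and the deletion group held both the lowest and the highest library. Its log2 fold change of 0.66 (SE 0.56; edgeR adjusted p 0.589) became -0.15 without deletion replicate 3. GLRA3 (ENSSSCG00000009698), an alpha subunit known from the superficial dorsal horn of mice, had 24 reads over the 6 libraries and was not tested. It had 0, 4 and 3 reads in wildtype and 3, 7 and 7 in deletion replicates 1 to 3, and the 0 of wildtype replicate 1 allows up to 0.176 CPM. All these levels lie at or near the floor, and no difference was detectable at this depth.

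Per exon length, GLRA1 made up most of the alpha subunit RNA in every library. Its share of the summed deposited RPKM (reads scaled by exon length and library size) of GLRA1, GLRA2 and GLRA3 was 86.4, 88.2 and 76.8% in wildtype and 96.6, 95.1 and 83.9% in the deletion replicates. The ranges overlapped because of deletion replicate 3, in which GLRA2 held 15.3%. The 3 alpha subunits together stood at 0.358, 0.692 and 0.338 times the RPKM of GLRB in wildtype and at 0.876, 1.21 and 0.929 times in the deletion group. Alpha subunit RNA was therefore below GLRB in all wildtype libraries and close to it in all deletion libraries. These shares are descriptions without a test.

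GPHN (ENSSSCG00000002285) encodes gephyrin, the scaffold of glycine and many GABA-A receptors, which also makes molybdenum cofactor in other tissues. It stood at 30.0, 26.7 and 37.5 CPM in wildtype and at 38.3, 40.8 and 41.9 CPM in the deletion replicates. The groups did not overlap on this scale, but wildtype replicate 3 came within 1 CPM of deletion replicate 1. In the deposited RPKM wildtype replicate 3, at 4.85, lay above deletion replicates 1 and 2, at 4.56 and 4.81. The means were 31.4 ± 5.56 and 40.3 ± 1.83 CPM (SD, n = 3 each), and the log2 fold change of 0.36 (SE 0.14) had an adjusted p of 0.216 in edgeR. Without wildtype replicate 3 it was 0.45, with an edgeR adjusted p of 0.0670.

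Among the transporters, SLC6A9 (ENSSSCG00000039770), which encodes the glycine transporter GlyT1, was the most abundant of the 10 genes per length. It stood at 222, 157 and 209 CPM in wildtype and at 248, 230 and 254 CPM in the deletion replicates, with group means of 196 ± 34.6 and 244 ± 12.9 CPM (SD, n = 3 each). No deletion library lay within the wildtype range in CPM, and wildtype replicate 2 was the lowest of all. In the deposited RPKM wildtype replicate 3, at 44.39, lay just above deletion replicate 2, at 44.33. The log2 fold change of 0.32 (SE 0.16) had an adjusted p of 0.321 in edgeR, and the 95% interval of the fold, 0.967 to 1.60, includes no difference. The astrocyte list, 7 of 8 names present, summed to 20406 to 24409 CPM in wildtype and 20231 to 25946 CPM in the deletion group. GFAP, with means of 20159 and 19403 CPM, made up most of that sum, so it says little of the others. Of the 7, FGFR3 (1.54-fold) and SLC1A3 (1.37-fold) were higher and ALDH1L1 (0.579-fold) lower at an unadjusted edgeR p under 0.05. These 3 did not overlap between the groups. DESeq2 called 2 of the 7, where it called 9.5% of all genes.

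SLC6A5 (ENSSSCG00000037705), which encodes the neuronal transporter GlyT2 and marks glycinergic neurons, varied most among the wildtype animals of the tested members. It had 17, 126 and 97 reads in wildtype replicates 1 to 3, or 0.997, 5.47 and 4.45 CPM, and 88, 67 and 315 reads in the deletion replicates, or 4.39, 3.52 and 13.6 CPM. Deletion replicates 1 and 2 lay inside the wildtype range, and the group difference rested on the low wildtype replicate 1 and the high deletion replicate 3. The log2 fold change was 0.97 (SE 0.68; edgeR adjusted p 0.501), with a 95% interval of the fold from 0.652 to 5.87. It was 0.0702 without deletion replicate 3 and 0.54 without wildtype replicate 1. The ratio of deletion to wildtype was 4.41 in the animals of prefix 14 and 1.73 in those of prefix 15.

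SLC32A1 (ENSSSCG00000007348), the vesicular transporter of GABA and glycine, overlapped between the groups too. It stood at 21.0, 28.3 and 13.5 CPM in wildtype and at 22.9, 20.6 and 40.1 CPM in the deletion replicates. Deletion replicate 3 lay above all wildtype libraries, and the other 2 within their range. The log2 fold change of 0.41 (SE 0.33; edgeR adjusted p 0.568) became 0.00512 without deletion replicate 3 and 0.11 without wildtype replicate 3.

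The GABA-synthesising enzymes had near-equal group means and unequal animals. GAD1 (ENSSSCG00000022233), which encodes GAD67, stood at 16.7, 24.2 and 14.9 CPM in wildtype and at 11.4, 10.1 and 34.7 CPM in the deletion replicates. Deletion replicates 1 and 2 were below every wildtype library and deletion replicate 3 above every one. The means were 18.6 ± 4.92 and 18.7 ± 13.8 CPM (SD, n = 3 each), with a log2 fold change of 0.0145 (SE 0.47; edgeR adjusted p 0.993) and a 95% interval of the fold from 0.475 to 2.15. The value was -0.83 without deletion replicate 3 (edgeR adjusted p 0.204).

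GAD2 (ENSSSCG00000011060), which encodes the synaptic isoform GAD65, ordered the animals in the same way. It stood at 13.1, 13.9 and 8.86 CPM in wildtype and at 6.94, 5.20 and 27.7 CPM in the deletion replicates, so that deletion replicates 1 and 2 again lay below and deletion replicate 3 above the wildtype range. The highest deletion library was 5.34 times the lowest, against 1.57 times in wildtype. The log2 fold change was 0.16 (SE 0.59; edgeR adjusted p 0.920) with an interval of the fold from 0.432 to 2.89, and was -1.02 without deletion replicate 3 (edgeR adjusted p 0.182). For both enzymes the prefixes differed in direction, with ratios of deletion to wildtype of 0.681 and 0.531 for GAD1 and GAD2 in prefix 14 and of 1.15 and 1.44 in prefix 15.

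**Figure D2:**
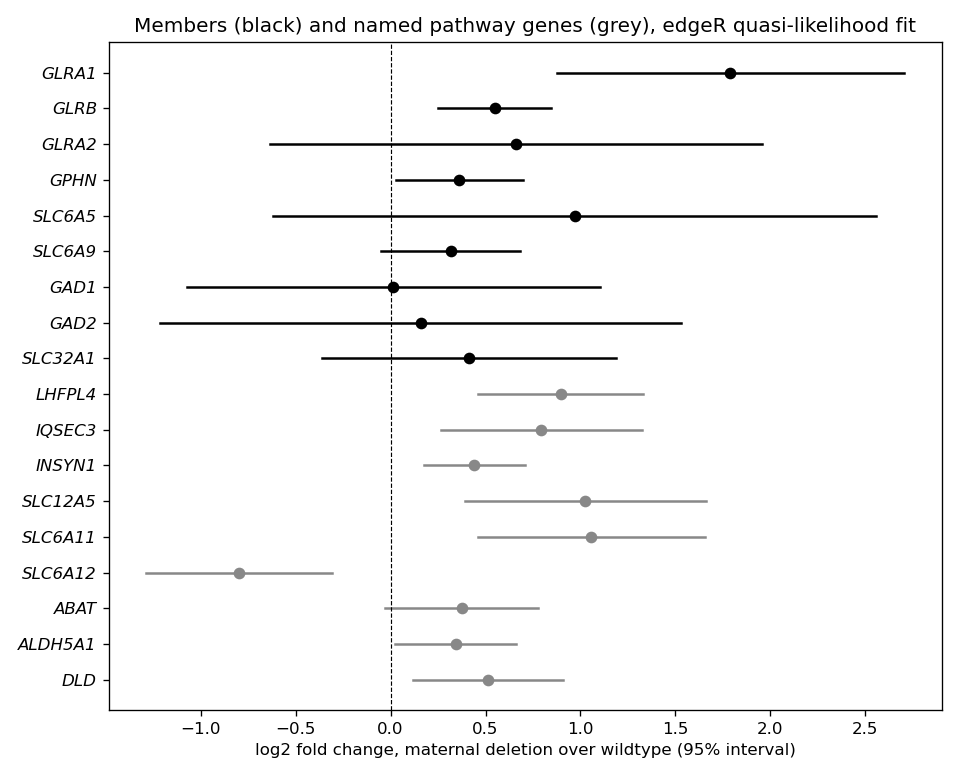
Log2 fold change, maternal deletion over wildtype, with its 95% interval from the edgeR quasi-likelihood fit (horizontal axis) for the 9 tested members in black and the named pathway genes in grey. The intervals of GLRA1, GLRB and GPHN lie above 0, and those of GAD1 and GAD2 are centred near it and reach from below -1 to above 1.

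The order of the 10 genes per length was broad. In the wildtype group SLC6A9 led with 40.7 ± 5.92 RPKM, followed by GLRB with 8.59 ± 0.639, SLC32A1 with 6.29 ± 2.37, GPHN with 3.99 ± 0.748, GAD1 with 3.89 ± 1.15 and GLRA1 with 3.45 ± 1.92 RPKM (SD, n = 3). Below them came GAD2 with 1.87 ± 0.428, SLC6A5 with 0.805 ± 0.534, GLRA2 with 0.576 ± 0.165 and GLRA3 with 0.0286 ± 0.0253 RPKM. Neighbours from GLRB to GAD2, and the pair SLC6A5 and GLRA2, overlapped in their wildtype ranges. SLC6A9 stood clear above the rest, GAD2 clear above SLC6A5, and GLRA3 clear below GLRA2. In the deletion group GLRA1, with 11.3 ± 3.71 RPKM, was next to GLRB with 12.1 ± 1.39 RPKM, and both overlapped SLC32A1 with 8.18 ± 3.68 RPKM.

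Ratios of 2 genes in the same library do not depend on how libraries are scaled. The ratio of GLRA1 to GLRB reads was -2.57, -1.60 and -2.82 on the log2 scale in wildtype and -1.13, -0.68 and -1.24 in the deletion replicates, so the groups did not overlap. The difference of 1.32, a fold of 2.49, had an exact two-sided permutation p of 0.1, the smallest possible, and 0.4 after Benjamini-Hochberg adjustment over the 8 ratios compared. The ratio of GLRA1 to GLRA2 was 1.91, 2.25 and 1.07 in wildtype and 4.24, 3.71 and 1.71 in the deletion replicates on the log2 scale, and overlapped through deletion replicate 3.

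SLC6A5 against GAD1 was the other ratio without overlap. It was -4.03, -2.14 and -1.73 on the log2 scale in wildtype and -1.37, -1.52 and -1.35 in the deletion replicates. The deletion animals thus lay within 0.17 of each other, although their SLC6A5 and GAD1 levels each differed more than 3-fold. The difference of 1.22 (exact permutation p 0.1, adjusted 0.4) was 0.53 without wildtype replicate 1. GAD1 against GAD2 also moved little, with means of 0.63 ± 0.24 in wildtype and 0.66 ± 0.32 in the deletion group (SD, n = 3 each; exact permutation p 1, adjusted 1).

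The inhibitory vesicular transporter SLC32A1 against the excitatory SLC17A6, which loads glutamate, gave log2 ratios of 0.58, 0.26 and 0.17 in wildtype and 0.52, 0.12 and 0.0442 in the deletion replicates. These overlapped, with a difference of -0.11 (exact permutation p 0.5, adjusted 0.8). GPHN against GLRB differed by -0.16 (exact permutation p 0.5, adjusted 0.8) and by -0.00619 without wildtype replicate 3. SLC6A5 against SLC6A9 and against SLC32A1 differed by 0.70 and 0.62 (exact permutation p 0.6 and 0.7, both adjusted to 0.8), and both differences were negative without wildtype replicate 1.

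**Figure D3:**
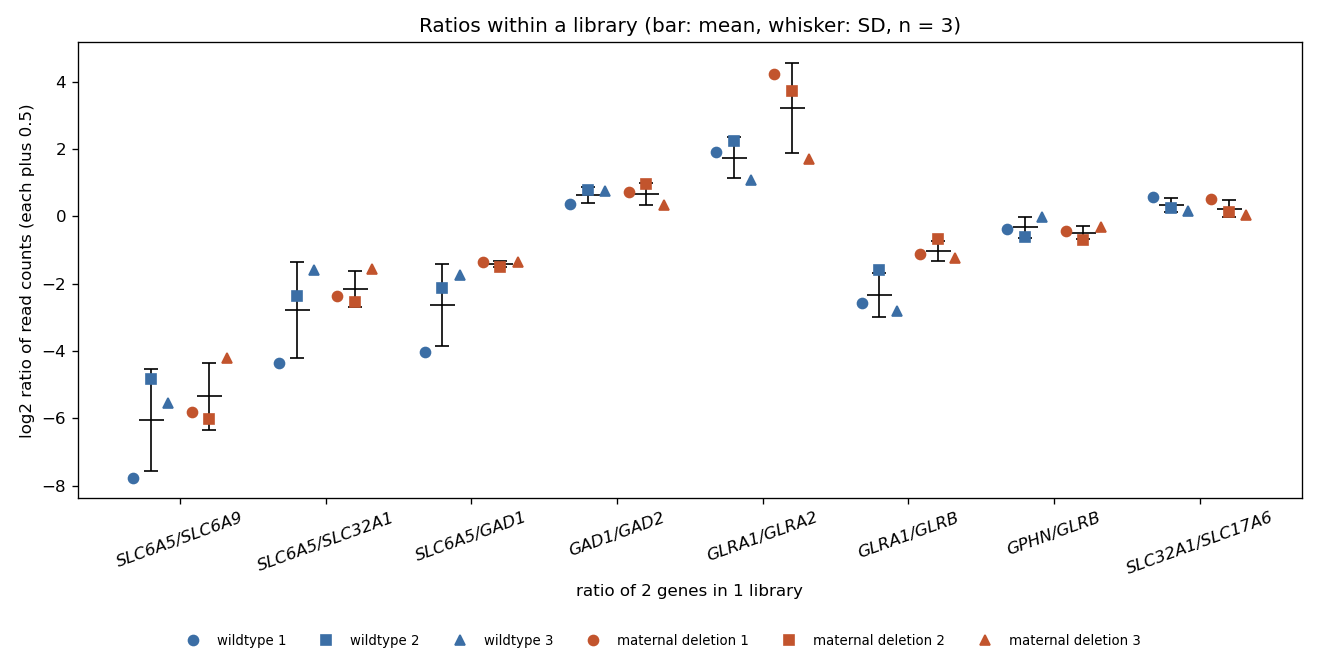
Log2 ratio of the read counts of 2 genes, each plus 0.5, within a library (vertical axis) for 8 gene pairs, with wildtype libraries in blue, deletion libraries in orange, the mean as a bar and the SD as whiskers. Only GLRA1/GLRB and SLC6A5/GAD1 show no overlap of the groups, and the deletion libraries lie closest together for SLC6A5/GAD1.

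Set against the general neuron genes, 9 of the 10 members were lower in the deletion group and GLRA1 alone was higher. The mean log2 level of that list, log2(CPM + 0.5), ranged from 6.11 to 6.89 in wildtype and from 7.42 to 7.89 in the deletion group, without overlap. A gene that rose less than the list comes out lower here, so these signs largely follow from the fold changes given above. The list is itself uneven, with a median log2 fold change of 1.18 against 0.60 for RBFOX3 and 0.19 for ELAVL3. The share of all genes that come out lower, or without overlap, was not computed. Relative to it, GLRA1 was higher by 0.67 in the deletion group, from -3.47 ± 0.35 to -2.80 ± 0.31 (SD, n = 3 each), and the groups overlapped. GLRB was lower by 0.58 and GPHN by 0.75, both without overlap. For GPHN the groups nearly touched, at -2.127 in wildtype replicate 2 and -2.141 in deletion replicate 1, against -1.524 and -1.695 for GLRB in the same libraries. GAD1 was lower by 1.30 and GAD2 by 1.32, and for both deletion replicate 3 was at the edge of the wildtype range. It stood at -2.475 for GAD1, just below wildtype replicate 1 at -2.452. For GAD2 it stood at -2.793, just above the -2.795 of wildtype replicate 2's neighbour, wildtype replicate 1. SLC32A1 was lower by 0.72 and SLC6A9 by 0.79, both with overlap, and GLRA2 by 0.76 with overlap. GLRA3 was lower by 0.76 without overlap, although its own mean was 0.104 CPM in wildtype and 0.273 CPM in the deletion group. These levels lie near the floor and below the 0.5 added, so its value mostly mirrors the rise of the list. SLC6A5 was lower by 0.24 with SDs above 1, and turned to 0.21 without wildtype replicate 3 and 0.24 without deletion replicate 2. GPHN was lower by 0.41 without wildtype replicate 3, SLC32A1 by 0.41 and GAD2 by 0.75 without deletion replicate 2. The fit with the neuron mean as a covariate gave other directions, with log2 fold changes of -0.33 for GLRA1, 0.18 for GLRB, 0.93 for GPHN, 0.89 for SLC6A9 and 0.67 for SLC6A5, and no member passed in it (edgeR adjusted p from 0.1997 to 0.981).

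Genes of excitatory and cholinergic transmission were set beside the members. CHAT, which makes acetylcholine, stood at 0.293, 1.82 and 0.184 CPM in wildtype and at 4.69, 13.2 and 3.89 CPM in the deletion replicates. The choline transporter SLC5A7 stood at 3.29, 9.29 and 0.551 CPM and at 32.7, 72.8 and 23.2 CPM, and the vesicular acetylcholine transporter SLC18A3 at 13.5, 20.8 and 0.505 CPM and at 73.2, 119 and 35.1 CPM. These 3 genes and GLRA1 shared their order of CPM in the deletion group, with deletion replicate 2 highest and replicate 3 lowest. For GLRA1 replicates 1 and 3 were nearly tied, and in the deposited RPKM replicate 1 was the lower, at 9.12 against 9.29. SLC6A5, SLC6A9, GAD1, GAD2 and SLC32A1 were highest in deletion replicate 3 and lowest in replicate 2. The log2 fold changes of CHAT, SLC5A7 and SLC18A3 were 3.19, 3.28 and 2.71, with edgeR adjusted p of 0.101, 0.0995 and 0.193. SLC17A6 stood at 14.0, 23.7 and 11.9 CPM and at 16.0, 18.9 and 38.9 CPM, a log2 fold change of 0.57 (edgeR adjusted p 0.481). SLC17A7 was between 0.2 and 1.08 CPM throughout, and SLC17A8 was not tested. None of the 5 tested genes passed in edgeR, and 3 were at an unadjusted p under 0.05 where 20.2% of all genes were. DESeq2 called CHAT and SLC5A7 where it called 9.5% of all genes. From voom there were none, where it called 444 of all 14566 genes.

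**Figure D4:**
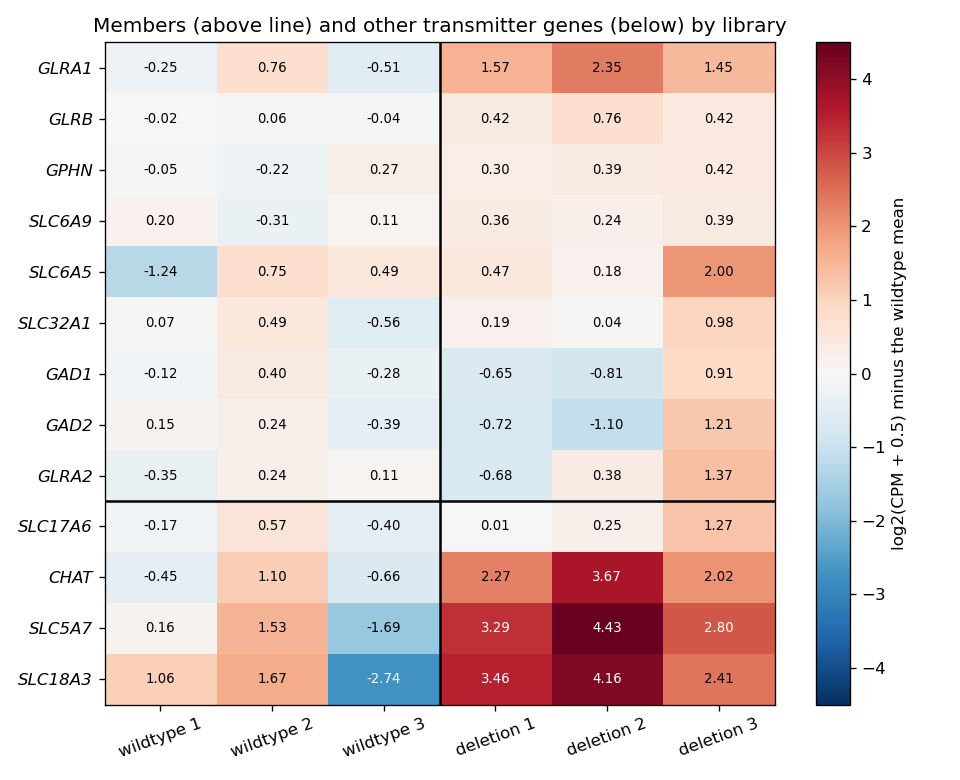
Deviation of each library from the wildtype mean, as log2(CPM + 0.5), for the 9 tested members (above the line) and 4 genes of glutamate and acetylcholine transmission (below it). In the deletion group GLRA1, CHAT, SLC5A7 and SLC18A3 are highest in replicate 2, at 2.35, 3.67, 4.43 and 4.16, as is GLRB. SLC6A5, SLC32A1, GAD1, GAD2, GLRA2, GPHN, SLC6A9 and SLC17A6 are highest in replicate 3.

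The genes whose profile over the 6 libraries lay nearest to that of GLRA1 were PTCHD1, TMEM255A and VAT1L. Their root mean square distances were 0.0928, 0.15 and 0.18 on the centred log2(CPM + 0.5) scale, among 11898 named genes with a mean of at least 1. PTCHD1 stood at 1.76, 3.21 and 1.29 CPM in wildtype and at 6.69, 12.4 and 5.92 CPM in the deletion replicates, and VAT1L at 38.5, 64.0 and 33.3 CPM and at 119.9, 265 and 101 CPM. Those nearest to SLC6A5 were SLC1A2, GRM5, ANKFN1, ADCY1 and ST8SIA3, at larger distances of 0.38 to 0.44. GRM5, a metabotropic glutamate receptor, stood at 6.45, 15.2 and 15.7 CPM in wildtype and at 24.1, 15.7 and 34.6 CPM in the deletion replicates.

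Other genes of inhibitory transmission were read from a list of 39, of which 35 had a row and 34 were tested. GLRA4, NLGN2 and SLC38A1 are among those not analysed here. None passed in edgeR, and voom called none, where it called 444 of all 14566 genes. At an unadjusted p under 0.05 there were 8, 7 with higher and 1 with lower deletion levels, or 23.5% of the list against 20.2% of all genes. DESeq2 called 5, or 14.7% against 9.5%. The genes named next are described by their values only. The median log2 fold change was 0.28, with 27 values positive and 7 negative, where 8266 of the 14566 genes tested were positive. The groups did not overlap in 10 of the 34, where 26.4% of all genes tested did not.

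Postsynaptic partners of the receptors were among those 8. LHFPL4, which ties GABA-A receptors to the synaptic adhesion protein neuroligin, stood at 8.33, 12.4 and 9.00 CPM in wildtype and at 16.0, 19.8 and 19.7 CPM in the deletion replicates, a log2 fold change of 0.90 (SE 0.19; edgeR adjusted p 0.0704). IQSEC3, a gephyrin-binding exchange factor, stood at 59.0, 48.6 and 32.1 CPM and at 68.0, 80.8 and 93.3 CPM, and INSYN1, an inhibitory synapse protein, at 17.7, 16.5 and 15.1 CPM and at 22.4, 22.4 and 22.0 CPM. Their log2 fold changes were 0.79 and 0.44 (edgeR adjusted p 0.114 and 0.0978). The chloride extruder SLC12A5 (KCC2), which keeps glycine and GABA inhibitory in mature neurons, stood at 80.0, 111 and 52.7 CPM in wildtype and at 131, 179 and 187 CPM in the deletion replicates. Its log2 fold change was 1.03 (SE 0.27; edgeR adjusted p 0.103). In each of these 4 genes every deletion library was above every wildtype library, as in 15.2% of all genes tested. DESeq2 called LHFPL4, IQSEC3 and SLC12A5. Since all 4 were picked at an unadjusted edgeR p under 0.05 in the same libraries, the separation and the calls largely follow from that choice.

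GABA uptake and breakdown genes followed no single direction. SLC6A11 (GAT-3), an astrocyte GABA transporter, stood at 52.6, 79.8 and 48.2 CPM in wildtype and at 114, 97.7 and 165 CPM in the deletion replicates, a log2 fold change of 1.06 (edgeR adjusted p 0.0903). SLC6A12, the betaine and GABA transporter, stood at 7.63, 7.51 and 6.89 CPM and at 3.30, 5.09 and 4.28 CPM, a log2 fold change of -0.80 (edgeR adjusted p 0.0993). DESeq2 called both. The GABA transaminase ABAT had a log2 fold change of 0.37 (edgeR adjusted p 0.282). ALDH5A1, the next enzyme of GABA breakdown, and DLD, a dehydrogenase shared by the glycine cleavage system and other mitochondrial complexes, had 0.34 and 0.51 (edgeR adjusted p 0.216 and 0.150). The glycine-specific cleavage genes GLDC, AMT and GCSH stood at 0.00875, -0.0854 and 0.0678, with 95% intervals reaching no further than 0.53 below and 0.49 above 0.

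Markers of inhibitory interneurons did not share a direction either. Of 22 listed genes, several of which excitatory neurons also make, 20 had a row and 15 were tested. None passed in edgeR, and voom called none, where it called 444 of all 14566 genes. The 3 genes at an unadjusted p under 0.05 make up a share near the 20.2% of all genes, and DESeq2 called GAL and GATA2, or 13.3% against 9.5%. The median log2 fold change was -0.0527, with 7 positive and 8 negative values. The neuropeptide galanin, GAL, stood at 17.1, 14.1 and 12.9 CPM in wildtype and at 6.14, 3.78 and 0.95 CPM in the deletion replicates, a log2 fold change of -2.02 (SE 0.54; edgeR adjusted p 0.102). The calcium-binding protein gene CALB2 had 0.97 and GATA2, a transcription factor of a ventral interneuron class that vessel cells also make, -0.82 (edgeR adjusted p 0.152 and 0.105).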

How the data were processed

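The authors deposited whole-number exon read counts per Ensembl gene, per the file headers, with a blank for no reads, and these counts were used for every test. Their deposited RPKM was used only to compare levels between genes, and the deposited TPM was not used. A deposited signal column headed CPM was scaled by the authors with a factor per library and was not used. The authors' deposited table holds fold changes with a sign, read here as a score, next to each p-value and false discovery rate. Aligner, counter, annotation and genome build: not given in the sources used here. No coordinates or sequences are therefore printed, and since no source says whether strand was used in counting, antisense reads cannot be told apart.

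Genes were kept by filterByExpr (14566 of 28965), scaled by TMM and tested with the edgeR 4.0.16 quasi-likelihood test with Benjamini-Hochberg adjustment over all of them, in R 4.3.3. DESeq2 1.42.0 and limma 3.58.1 voom were alternatives, and the tests were checked on simulated data. SEs were derived from the quasi-likelihood statistic. Ratios used counts plus 0.5 and exact permutation tests in SciPy 1.17.1. The floor of 3 reads covers counting error only. The labels name separate animals and give no replicate numbers, so numbers here only name libraries. The meaning of the ID prefix, 14 or 15, is not stated. The members and lists were chosen with earlier results of these data known. Named genes were all members, a fixed set of transmission genes, list genes at an unadjusted p under 0.05, and the 5 nearest profiles to SLC6A5 and to GLRA1; some genes that this rule takes are not reported here. GLDC, AMT, GCSH and genes given as other observations were named after their values were seen.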

Additional observations from a re-analysis of the deposited data

How the results depend on the processing

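No paired analysis was possible because the labels give no replicate numbers; the ID prefix was used as a block instead. The members past the threshold numbered 0 in every edgeR and voom setting and, by DESeq2, members changed in maternal deletion, higher, numbered 2: GLRA1 at 1.75 (adjusted p 0.000367) and GLRB at 0.51 (adjusted p 0.0182). Over those settings that leave out 1 library, GLRA1 ranged from 1.45 to 2.30, GLRB from 0.43 to 0.61, GPHN from 0.25 to 0.45, SLC6A9 from 0.17 to 0.42, SLC6A5 from 0.0702 to 1.38, SLC32A1 from 0.00512 to 0.68, GLRA2 from -0.15 to 1.07, GAD1 from -0.83 to 0.31 and GAD2 from -1.02 to 0.54. GAD1 turned negative with RLE (-0.0282), total-count (-0.0521) and upper-quartile scaling (-0.0532), DESeq2 (-0.0307), voom (-0.23), the ID prefix block (-0.0413) and without wildtype replicates 1 (-0.056) and 3 (-0.19). GAD2 was -0.29 with voom and -0.0744 without wildtype replicate 3. With the general neuron mean as a covariate, GLRA1 was -0.33, GLRA2 -0.12, GAD1 -0.88, GAD2 -0.64 and SLC32A1 -0.84, GLRB 0.18, SLC6A5 0.67, GPHN 0.93 and SLC6A9 0.89 (edgeR adjusted p from 0.1997 to 0.981); that mean does not overlap between the groups, so genotype and neuron content cannot be told apart. UBE3A lost its call with the ID prefix block (-1.39), the neuron covariate (-1.74) and prefix 15 only (-1.44), and ranged from -1.51 to -1.33 with 1 library left out, losing it without wildtype replicate 1 or any deletion replicate.

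Across all genes, 26 were higher and 123 lower. Higher genes numbered 9 with RLE, 6 with total-count scaling, 77 with no filter, 573 with DESeq2, 95 with voom and 0 with the ID prefix block or prefix 15 only. Lower genes numbered 782 with DESeq2, 349 with voom, 3 with the block, 71 with the neuron covariate and 0 with prefix 15 only. With 1 library left out they ranged from 0 to 120 higher and from 0 to 639 lower, the most without wildtype replicate 3. Pathway genes higher numbered 1 with no filter and 4 with DESeq2, and 1 was lower with DESeq2. Of the ratios, with 1 library left out, SLC6A5/SLC6A9 ranged from -0.16 to 1.30, SLC6A5/SLC32A1 from -0.18 to 1.21, GAD1/GAD2 from -0.11 to 0.20 and SLC32A1/SLC17A6 from -0.25 to 0.0141. GPHN/GLRB ranged from -0.31 to -0.00619, and it and the other ratios kept their sign, and adding 2 in place of 0.5 to each count turned no ratio. Relative to the general neuron genes, SLC6A5 ranged from -0.88 to 0.24, GPHN from -1.04 to -0.41, SLC32A1 from -1.02 to -0.41, GAD1 from -1.87 to -0.87, GAD2 from -2.04 to -0.75 and GLRA2 from -1.28 to -0.36. The cause of each shift was not tested. Depth limits GLRA3, SLC17A8 and the 17 SLC6A5 reads of wildtype replicate 1.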

Other observations

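Of the 20 inhibitory interneuron genes with a row, 12 were highest of the 6 libraries in deletion replicate 3. GAL and GATA2, 2 genes, were lowest there, and 6 were neither. PTF1A, among these 6, was tied for lowest there at 0 reads. LHX1, EN1 and CALB1, among the 12, had only 14, 11 and 13 reads in that library. The share of all genes highest in deletion replicate 3 was not computed, so the count cannot be read as particular to interneuron genes. The 3 genes given next were chosen after their values were seen. SST, the neuropeptide somatostatin, stood at 18.9, 9.98 and 10.9 CPM in the wildtype libraries, against 3.30, 3.25 and 35.2 CPM in the deletion libraries. PENK, the precursor of enkephalins, stood at 85.0, 50.7 and 55.7 CPM and at 33.9, 41.7 and 119 CPM. PAX2, a transcription factor of inhibitory interneurons, stood at 2.64, 3.91 and 3.67 CPM and at 3.25, 1.84 and 8.94 CPM. Deletion replicates 1 and 2 were below the wildtype range for SST and PENK, as for GAD1 and GAD2, and PAX2 was below it in deletion replicate 2 only.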
